A study of Mus musculus with 2 samples.

Results

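The variable segments of the alpha-beta T cell receptor were taken as all genes whose symbols begin with Trav (alpha chain) or Trbv (beta chain). They are 163 of the 32285 genes measured, 128 Trav and 35 Trbv, and they were read in T cells, defined as cells with at least 2 UMIs of Cd3d, Cd3e and Cd3g together, at least 1000 UMIs and less than 10% mitochondrial UMIs. A UMI (unique molecular identifier) marks 1 captured RNA molecule. The gate held 1400 of 3420 cells in one library and 1708 of 3982 in the other.

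White blood cells were sorted alive on CD45 from digested RPE (the pigmented layer behind the retina) and choroid (its vascular layer), and their RNA was counted cell by cell from the 3′ end. Both libraries came from mice injected intraperitoneally with NaIO3, an oxidant toxic to the RPE, at 20 mg/kg. One library carried the genotype label IL-17ra fl (called flox here) and the other IL-17RA CKO (called knockout), so each group is 1 library. The sources used here give neither strain, age and sex of the mice, nor how many were pooled, nor which cells carried the Il17ra deletion. With 1 library a group, no difference has a replicate check and no test was made. The 95% intervals in parentheses reflect counting alone.

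Each developing T cell joins 1 of many V segments to a joining segment, and in the beta chain also to a diversity segment, to build the part of its receptor that recognises antigen. All descendants of that cell keep the same choice, so a V segment pair that recurs in many cells of a tissue is a sign of an expanded clone. It is only a sign here, because the junction between the segments, which identifies a clone, is not read in counts per gene. RNA is captured at the constant-gene end of the message in these libraries, far from the V segment, so the V segment of a given cell is often missed. In the mouse, much of the Trav locus occurs in further copies, named with d or n, whose reads can be hard to tell apart.

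The segments on which the results turn are shown by the last 100 bases of their longest transcript in GENCODE vM21 (GRCm38, the assembly also called mm10), the end that meets the joining segment. In the first 5, capitals mark the codon of the conserved cysteine that opens the antigen-contacting loop called CDR3, found as the last stretch of a tyrosine codon, any codon and a cysteine codon. Trav21-dv12 and Trbv12-2 form the most frequent pair, Trav3-3 was seen in the same cells, Trav7-6 marked a second group of CD8 cells, and Trav11 is the alpha segment of invariant natural killer T (NKT) cells. All lie on the plus strand, Trav21-dv12 at chr14:53875984-53876752, Trav3-3 at chr14:53665929-53666506, Trav7-6 at chr14:53716716-53717291, Trav11 at chr14:53519303-53519859 and Trbv12-2 at chr6:41118851-41119364.
Trav21-dv12: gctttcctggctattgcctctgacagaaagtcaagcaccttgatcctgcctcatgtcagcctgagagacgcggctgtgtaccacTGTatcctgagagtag
Trav3-3: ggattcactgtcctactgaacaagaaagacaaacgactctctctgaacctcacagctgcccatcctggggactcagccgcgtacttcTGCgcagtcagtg
Trav7-6: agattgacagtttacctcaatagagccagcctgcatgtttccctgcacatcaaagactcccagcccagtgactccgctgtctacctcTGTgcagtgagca
Trav11: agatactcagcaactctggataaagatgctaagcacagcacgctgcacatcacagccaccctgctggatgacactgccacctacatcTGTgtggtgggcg
Trbv12-2: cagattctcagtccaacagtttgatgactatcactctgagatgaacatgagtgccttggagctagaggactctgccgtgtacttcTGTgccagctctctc

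The 3 Trav16 copies show how close such copies are, and here capitals mark the bases at which they differ. Trav16 (chr14:53743104-53743705) differed from Trav16n (chr14:53351028-53351621) at 1 of the 100 bases and from Trav16d-dv11 (chr14:53047287-53047821) at 2. A read that ends before these positions cannot tell them apart, so the counts of the copies are uncertain.
Trav16: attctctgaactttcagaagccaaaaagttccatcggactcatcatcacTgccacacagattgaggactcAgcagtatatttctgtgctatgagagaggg
Trav16n: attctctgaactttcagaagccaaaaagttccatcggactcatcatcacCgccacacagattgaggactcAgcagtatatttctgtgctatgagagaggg
Trav16d-dv11: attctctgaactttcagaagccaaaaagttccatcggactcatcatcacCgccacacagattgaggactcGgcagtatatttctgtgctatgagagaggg

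T cells of the 2 libraries were of similar depth, with medians of 8651.5 UMIs in flox and 7932.5 in knockout. The receptor constant gene Trbc2 had a UMI in 96.5% and 96.2% of them and Trac in 85.3% and 84.8%, while Cd79a, of B cells, was in 2.57% and 4.92% and Rpe65, of the RPE, in 0 and 3 cells. Ighm, also of B cells, was in 33.6% and 31.4%. Of monocyte and macrophage genes, Lyz2 was in 18.3% and 18.03% and Cst3 in 55.5% and 52.7%. The part of such RNA in the results was not tested. Il17ra itself stood at 70.3 and 81.1 CPM (UMIs scaled to a total of 1000000 UMIs of the cells described), which checks nothing where the captured 3′ end lies outside the deleted part. The libraries mix cells of both sexes: Xist, expressed from the inactive X chromosome of females, without Y-linked UMIs marked 70.9% of flox and 32.0% of knockout T cells. Y-linked UMIs (Ddx3y, Eif2s3y, Kdm5d or Uty) without Xist marked 14.6% and 40.2%. The libraries shared 1 T cell barcode.

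All members were accounted for. Of the 128 Trav segments, 71 had a UMI in at least 1 flox T cell, 73 in knockout, 78 in either and 66 in both. The 50 never seen included 15 of the 20 annotated pseudogenes. Of the 35 other unseen Trav segments, 31 share every 90-base stretch of their transcript with another member, so their reads could not be assigned to them alone. Of the 35 Trbv segments, the same 23 were seen in both libraries, and the 12 unseen included 11 of 13 pseudogenes. The longest transcripts of 34 Trav members are identical to another member's. The d and n copies together were no small part of the signal: n copies were present in 21.3% of flox and 18.9% of knockout cells with any Trav UMI, and d copies in 10.1% and 11.3%.

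Alpha segments were seen more often in knockout T cells and beta segments less often. A Trav UMI was present in 357 of 1400 flox T cells, 25.5% (23.2 to 27.9), and in 549 of 1708 knockout T cells, 32.1% (29.9 to 34.4), a difference of 6.64 percentage points (3.44 to 9.80). A Trbv UMI was present in 499 flox cells, 35.6% (33.1 to 38.2), and 488 knockout cells, 28.6% (26.4 to 30.8), a difference of -7.07 points (-10.4 to -3.77). The intervals of both chains are separate and point in opposite directions. Both chains together were seen in 149 and 184 cells, 10.6% and 10.8%.

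Of the constant genes, Trac had 430 CPM in the flox library, with an interval of 419 to 441.7, and 453 in the knockout library, with one of 442.01 to 464, which lie just apart. Trbc2 was lower in knockout with separate intervals, at 1381 (1360.4 to 1401) and 1238 CPM (1219.7 to 1256). Trbc1 had 688 and 713 CPM, with intervals that overlap. Any joining segment was seen in 27.6% and 28.0% of cells for Traj and in 12.3% and 11.0% for Trbj, with overlapping intervals. With each cell thinned to 1000 UMIs, Trav was seen in 4.43% (3.41 to 5.64) and 6.44% (5.32 to 7.71) and Trbv in 5.50% (4.36 to 6.83) and 4.10% (3.21 to 5.15). The order was the same, but at this depth the intervals overlap. Outside the T cell gate, at median depths of 8860 and 7560 UMIs, a Trav UMI was seen in 0.495% and 0.572% of cells and a Trbv UMI in 0.149% and 0.132%, so this background was low. The flox counts were written by Cell Ranger 4 and the knockout counts by Cell Ranger 7.0.1, and an effect of genotype cannot be told apart from one of software version or of the animals pooled.

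**Figure D1:**
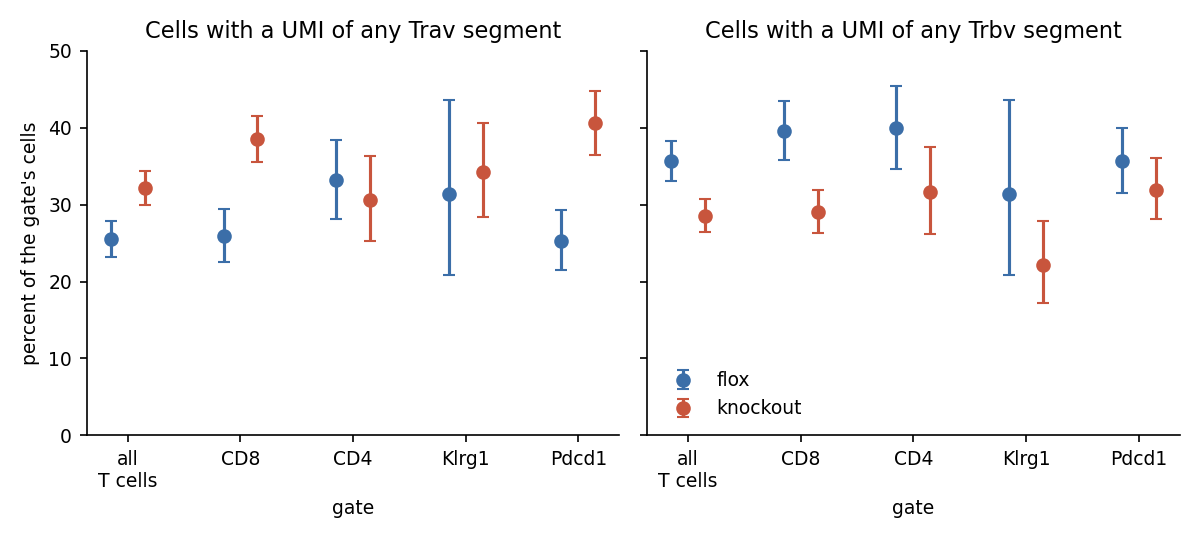
Percent of cells (y axis) with a UMI of any Trav segment (left) or any Trbv segment (right) in all T cells and in the CD8, CD4, Klrg1 and Pdcd1 gates (x axis), with exact 95% intervals as bars. Trav was higher in knockout in all T cells, the CD8 gate and the Pdcd1 gate, with 38.5% against 25.9% in the CD8 gate. Trbv was lower in each gate, with intervals that overlap in the CD4, Klrg1 and Pdcd1 gates.

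The gates, which may overlap except for CD8 and CD4, divided the T cells by subset. The CD8 gate (a UMI of Cd8a or Cd8b1 and none of Cd4; CD8 marks cytotoxic T cells) held 652 flox and 1046 knockout cells. The CD4 gate (the reverse; CD4 marks helper and regulatory T cells) held 338 and 278. Klrg1, a receptor of terminally differentiated effector cells, was present in 70 and 248 cells, and Pdcd1, which encodes the inhibitory receptor PD-1 of activated and chronically stimulated cells, in 511 and 557. The higher share of Trav in knockout lay in the CD8 gate, at 25.9% (22.6 to 29.5) and 38.5% (35.6 to 41.6), and in the Pdcd1 gate, at 25.2% (21.5 to 29.2) and 40.6% (36.5 to 44.8). In the CD4 gate the values were 33.1% (28.1 to 38.4) and 30.6% (25.2 to 36.4), with intervals that overlap. Trbv was lower in knockout in the CD8 gate, at 39.6% (35.8 to 43.4) and 29.1% (26.3 to 31.9).

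Usage is given below as the share of the cells with any segment of that chain. The beta chain looked alike in the libraries apart from Trbv20. Trbv12-2 led in both, in 86 of 499 flox cells, 17.2% (14.0 to 20.8), and in 87 of 488 knockout cells, 17.8% (14.5 to 21.5). Trbv13-2 followed, in 60 cells, 12.0% (9.30 to 15.2), and 54 cells, 11.1% (8.42 to 14.2). The intervals of both overlap almost fully. Across the 35 Trbv segments the usage in flox and knockout had a Pearson r of 0.913 and a Spearman rho of 0.95. Both include the 12 segments with no cell in either library. They are a description over segments of 2 libraries that share their read capture and copy structure. The neighbours in rank below these, Trbv3 (7.62% and 9.63%), Trbv2 (9.22% and 5.12%), Trbv19 (5.41% and 7.58%), Trbv1 (5.61% and 7.38%) and Trbv12-1 (4.61% and 7.58%), had intervals that overlap between the libraries.

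Trbv20 was the 1 beta segment, of 15 with at least 20 cells in the libraries together, that differed over 2-fold with separate intervals. With cells thinned to 1000 UMIs, with 2 UMIs asked of a segment, or without cells that had gamma-delta constant UMIs, 0 Trbv segments did. It was in 51 flox cells, 10.2% (7.70 to 13.2), and 20 knockout cells, 4.10% (2.52 to 6.26). The flox excess sat among CD8 cells, where Trbv20 held 41 of 258 cells, 15.9% (11.7 to 20.9), against 11 of 304, 3.62% (1.82 to 6.38), in knockout. In the CD4 gate it held 6.67% (3.09 to 12.3) and 6.82% (2.54 to 14.3). Among flox cells in both the CD8 and Pdcd1 gates it was the leading beta segment, with 24 of 115 cells, against 3 of 133 in knockout. Of the 15 flox Trbv20 cells with a Trav UMI, 4 had Trav14-3 and 4 had Trav3-3, so no segment counted on its own was in most of them. Trav14n-3, named as a copy of Trav14-3, was with Trbv20 in 2 flox cells that had 1 segment of each chain. Whether reads of these copies were told apart was not tested.

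**Figure D2:**
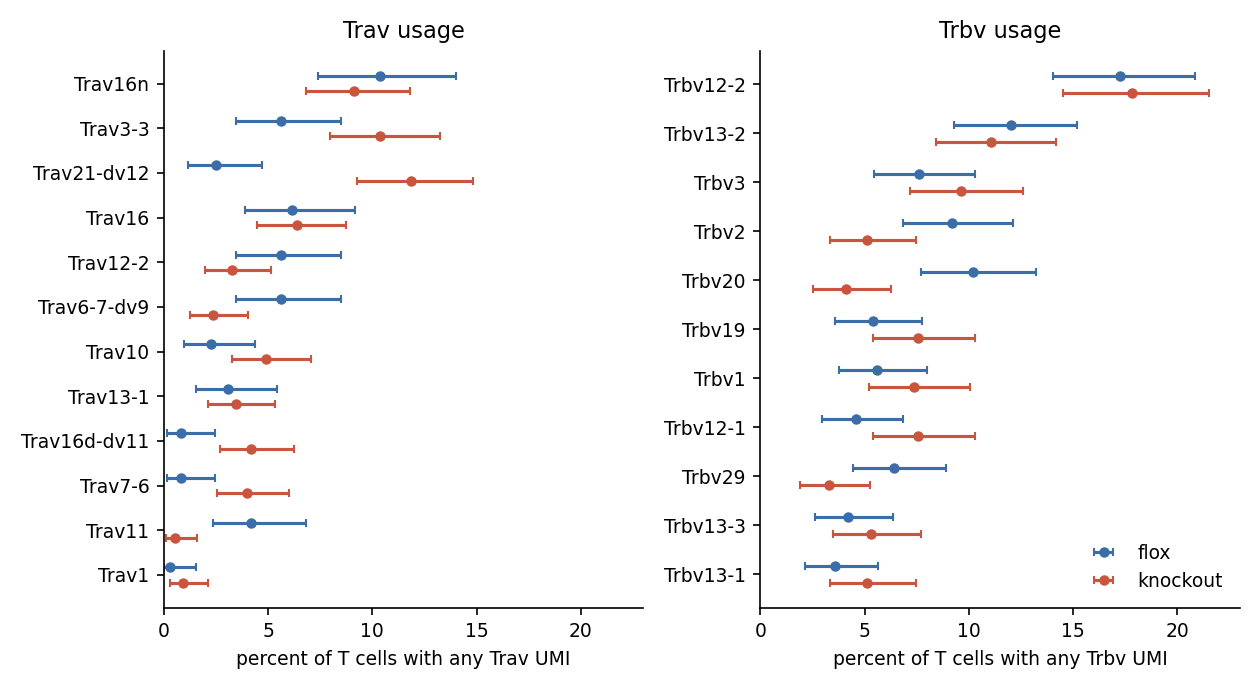
Usage of the named Trav (left) and Trbv (right) segments, as percent of T cells with any UMI of that chain (x axis), with exact 95% intervals. Trav21-dv12, Trav16d-dv11 and Trav7-6 stand apart to the right in knockout and Trbv20 to the left, while Trbv12-2 and Trbv13-2 overlap.

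The alpha chain shifted more. Trav21-dv12, which can also be used by the delta chain, was in 9 of 357 flox cells, 2.52% (1.16 to 4.73), and led the knockout library with 65 of 549 cells, 11.8% (9.26 to 14.8), a 4.70-fold higher usage. Trav7-6 was in 3 flox cells, 0.8403% (0.174 to 2.44), and 22 knockout cells, 4.01% (2.53 to 6.004). Trav16d-dv11 was likewise in 3 flox cells, 0.8403%, and in 23 knockout cells, 4.19% (2.67 to 6.22). These 3 are, of 13 Trav segments with at least 20 cells, those that differed over 2-fold with separate intervals, and all 3 were higher in knockout. The minimum is on both libraries together, and these 3 reached it through knockout, so their shared direction is in part set by the choice. With thinning, or without cells that had gamma-delta constant UMIs, 0 Trav segments differed so, and with 2 UMIs asked of a segment 1 did.

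For Trav16d-dv11, 7 of the 23 knockout cells also had a Trav16n UMI, its near-identical copy. Trav16n itself led the flox library and was even between the libraries, in 37 cells, 10.4% (7.40 to 14.0), and 50 cells, 9.11% (6.84 to 11.8), and Trav16 stood at 6.16% and 6.38%. Trav3-3 was in 20 flox cells, 5.60% (3.46 to 8.52), and 57 knockout cells, 10.4% (7.96 to 13.2), with intervals that just overlap. Its last 100 bases differ from those of its copies Trav3d-3 and Trav3n-3 at 2 bases each, so its counts are also uncertain. Trav10 stood at 2.24% and 4.92%, Trav12-2 at 5.60% and 3.28%, Trav6-7-dv9 at 5.60% and 2.37% and Trav13-1 at 3.08% and 3.46%, all with overlapping intervals. Across the 128 Trav segments Pearson's r was 0.719 and Spearman's rho 0.866, and without Trav21-dv12 r was 0.787. These include the 50 segments with no cell in either library, whose shared zeros raise such values. The 5 leading Trav segments held 29.9% of all cell-segment calls in flox and 37.3% in knockout, against 50.4% and 49.2% for the 5 leading Trbv.

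The summed UMIs of T cells set the members beside all genes. Of the 13439 genes whose UMIs summed to 20 or more over the libraries, 2.01% were at least 2-fold higher in knockout and 2.78% at least 2-fold lower. Only 41 of the 163 members reached that minimum, 24 Trav and 17 Trbv. Of the 24 Trav, 10 were at least 2-fold higher and 4 lower, and of the 17 Trbv, 0 were higher and 4 lower. A segment could reach the minimum through the library where it was high, so these counts describe the members and support nothing further. The median log2 ratio was 0.18 over the 41 members and 0.02 over all genes tested. Trav21-dv12 had 13 UMIs (1.001 CPM) in flox and 120 (8.10 CPM) in knockout, Trav7-6 had 3 and 36, and Trav3-3 had 25 and 82. Trbv20 had 78 and 29 UMIs and Trbv2 had 73 and 38.

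Trav21-dv12 was concentrated in knockout CD8 cells with Pdcd1. It was in 60 of the 226 knockout Pdcd1 cells that had a Trav UMI, 26.5% (20.9 to 32.8), against 4 of 129 in flox. In the CD8 gate it was in 61 of 403 knockout cells, 15.1% (11.8 to 19.0), and in the CD4 gate in 3 of 85. Of the 65 knockout cells with Trav21-dv12, 58 were in both the CD8 and Pdcd1 gates, where it held 58 of 195 cells with a Trav UMI, 29.7% (23.4 to 36.7), and 1 had a Klrg1 UMI. The 9 flox cells were spread over the gates, with 3 CD8 and 5 CD4 cells, and 4 of the 9 had a UMI of Trdc, the delta constant gene, which 0 of the 65 knockout cells had. In flox the leading Trav of the CD8 and Pdcd1 cells was Trav16n, in 10 of 70 cells.

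**Figure D3:**
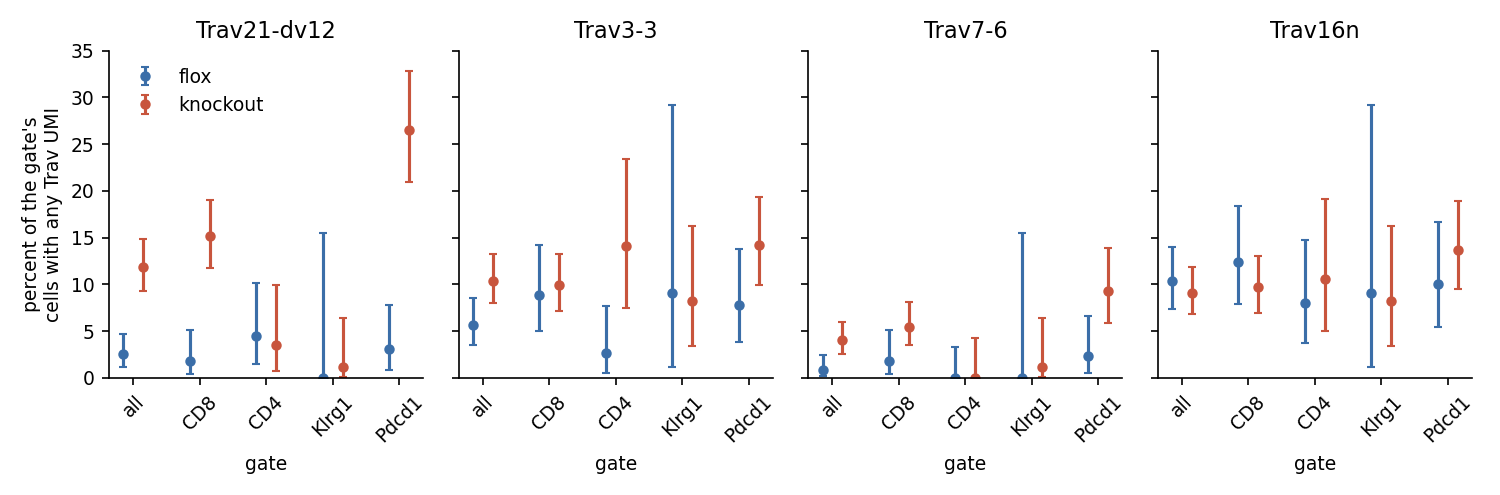
Usage of Trav21-dv12, Trav3-3, Trav7-6 and Trav16n as percent of the cells with any Trav UMI (y axis) in all T cells and in each gate (x axis), with exact 95% intervals. In knockout Trav21-dv12 reached 26.5% of the Pdcd1 gate, while Trav16n overlapped between the libraries in every gate.

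Pairs were counted in cells with exactly 1 Trav and exactly 1 Trbv segment, 114 in flox and 147 in knockout. In flox, 97 different pairs were seen, 85 of them in a single cell, and the most frequent had 3 cells. Those with 3 were Trav12-2 with Trbv13-2, Trav14-3 with Trbv20, Trav16 with Trbv12-2, Trav16n with Trbv3 and Trav3-3 with Trbv20. The 5 flox pairs next in order (Trav12-2 with Trbv12-2, Trav14n-3 with Trbv20, Trav16n with Trbv16 or Trbv2, Trav4-3 with Trbv29) had 2 cells each. In knockout, 108 pairs were seen and 89 in a single cell. The share of cells in a pair held by 2 or more cells was 25.4% in flox and 39.5% in knockout, and in the CD8 gate 25% of 56 cells and 45.8% of 107. Such a share rises with the number of cells read, which was larger in knockout, and no value at equal cell numbers was computed.

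Trav21-dv12 with Trbv12-2 was the most frequent pair, in 12 knockout cells, 8.16% (4.29 to 13.8), and in 0 of the 114 flox cells, which allows up to 2.63% by the limit of 3 counts. The product of both segments' own shares gives 2.95 cells. All 12 were CD8 cells and 11 were in the Pdcd1 gate, where the pair held 11 of 61 cells, 18.03% (9.36 to 29.98). With shares taken within each gate, the product gives 3.36 cells in the CD8 gate and 4.13 in the Pdcd1 gate. Counting also cells with further segments, 17 knockout cells held both, and 17 of the 20 Trav21-dv12 cells with any Trbv UMI had Trbv12-2. Within the CD8 and Pdcd1 gates that was 16 of 16.

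Trav3-3 with Trbv12-2 followed, in 6 knockout cells, 4.08% (1.51 to 8.67), with a product of shares of 3.16 cells. All 6 were CD8 cells. Trav3-3 and Trav21-dv12 were seen together in 14 knockout cells, where the product of their shares gives 6.75, and in 0 flox cells. Of those 14, 13 were CD8 cells and 6 had a Trbv UMI. The segments lie 210 kb apart. In general, T cells can rearrange the alpha locus on both chromosomes, so a cell may carry a pair of alpha chains. Whether these 14 cells did so was not tested. Their median depth was 11152 UMIs, against 8239 in all 65 knockout cells with Trav21-dv12. Which of the 2 alpha segments belongs to the receptor on the cell surface is not shown by these counts.

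The other knockout pairs were smaller. Trav16 with Trbv3 and Trav16d-dv11 with Trbv1 had 4 cells each, against products of 1.10 and 0.442, and Trav8n-2 with Trbv3 and Trav9-2 with Trbv12-2 had 3. The 4 next in order (Trav10 with Trbv31, Trav12-2 with Trbv16, Trav12-3 with Trbv3, Trav14-3 with Trbv13-1) had 2. Of the distinct pairs, 14 were seen in both libraries, 14.4% of the flox and 13.0% of the knockout pairs. In the CD4 and Klrg1 gates no pair had more than 2 cells in either library.

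Beta segments were also seen together in a cell. Trbv12-2 with Trbv13-2, whose starts lie 2.55 kb apart, were both present in 16 flox and 7 knockout cells, against products of 10.3 and 9.63. More than 1 Trbv segment was seen in 55 of 499 flox and 44 of 488 knockout cells with a Trbv UMI, and exactly 1 in the others.

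The cells with Trav21-dv12 shared further features that the segment rule did not use. Of the 58 knockout cells in the CD8 and Pdcd1 gates, 55 had neither a UMI of Xist nor one of the Y-linked genes, 94.8% (85.6 to 98.9). Among the 101 cells of the same gates with a Trav other than Trav21-dv12, Trav3-3 or Trav7-6, 14 had neither, 13.9% (7.79 to 22.2). The median depths of these sets were 8386 and 9203 UMIs. Their summed Xist level was 1.98 CPM (1 UMI) against 191 CPM, and their Y-linked level 7.93 CPM against 184 CPM.

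Trav3-3 cells without Trav21-dv12 in these gates went the same way, with neither transcript in 13 of 15 cells. Of the 37 Trbv12-2 cells in these gates 26 had neither, but 16 of the 37 also had Trav21-dv12 and 10 had Trav3-3, 5 of these without Trav21-dv12. Over all knockout T cells, Trbv12-2 without either of these segments had neither transcript in 16 of 64 cells, 25% (15.02 to 37.4), beside 26.2% of all T cells. Outside the CD8 and Pdcd1 gates the shares were 5 of 29 for Trav3-3, 11 of 50 for Trbv12-2 and 2 of 7 for Trav21-dv12. Read the other way, of the 143 knockout CD8 and Pdcd1 cells with neither transcript, 83 had a Trav UMI, and 55 of the 83 had Trav21-dv12. Of the 39 with a Trbv UMI, 26 had Trbv12-2. In flox, 33 of 277 CD8 and Pdcd1 cells had neither transcript, 11.9% (8.34 to 16.3), and no Trav21-dv12 was seen among them.

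Other segments went with the other sex classes. Trav7-6 was in 22 knockout cells, all of them CD8 cells and 21 with Pdcd1, and 19 of the 21 had Xist without Y-linked UMIs. It made up 19 of the 48 Xist cells with a Trav UMI in the CD8 and Pdcd1 gates, and 2 of its cells had a Trbv UMI, both Trbv4. Trav17, seen in 1 flox and 10 knockout cells, added 7 of those 48, and both of the 7 that had a Trbv UMI had Trbv13-3. Trav17 was singled out after its values were seen. Among the 62 Y-linked cells with a Trav UMI in these gates, Trav16n held 21 and its copy Trav16d-dv11 held 7, and the beta segments were mixed, led by Trbv3 with 12 of 61 cells. The 6 Trav16n cells of these gates with a Trbv UMI had at most 2 cells of any one Trbv.

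**Figure D4:**
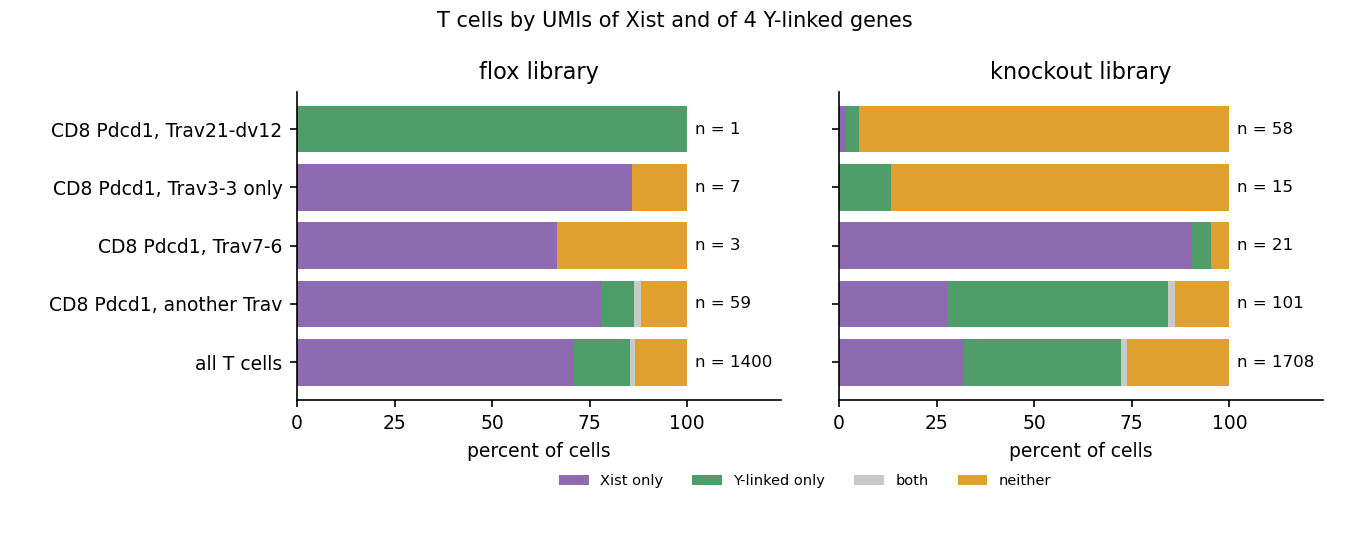
Share of cells (x axis, percent) with UMIs of Xist only, of Y-linked genes only, of both or of neither, in flox (left) and knockout (right), for all T cells and for cells of the CD8 and Pdcd1 gates by their Trav segment. In knockout 55 of 58 Trav21-dv12 cells had neither and 19 of 21 Trav7-6 cells had Xist only.

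The gamma locus gave a second such feature. Its genes were likewise chosen after seeing the data. Tcrg-V1, a gamma variable segment, had a UMI in 24 of the 58 Trav21-dv12 cells, 41.4% (28.6 to 55.1), and in 4 of the 101 cells with another Trav, 3.96% (1.09 to 9.83). It was in 6 of the 15 cells with Trav3-3 alone, 0 of the 21 Trav7-6 cells and 16 of 60 cells of these gates that had neither sex transcript and no Trav UMI. Tcrg-C4 was in 37 of 58 and 33 of 101, and Tcrg-C2 in 42 and 56. Trdc, whose product would complete a gamma-delta receptor, was in 0 of 58 and 0 of 101, which allow up to 5.17% and 2.97% by the limit of 3 counts. Leaving out every cell with a UMI of Trdc, Tcrg-C1, Tcrg-C2 or Tcrg-C4, which removes 48 of the 58, took Trav21-dv12 in the knockout Pdcd1 gate from 26.5% to 11.6% and its pair with Trbv12-2 from 8.16% to 1.961%.

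Joining segments were read in few of these cells. Of the 58, 15 had a Traj UMI, led by Traj18 and Traj27 with 4 each, and 7 had a Trbj UMI, 6 of them Trbj2-7. Of the 17 cells of the pair, 4 had a Traj UMI, with no Traj in more than 1 of them, and 2 had a Trbj UMI, 1 of Trbj1-2 and 1 of Trbj2-5. These are too few cells to show whether they share a junction. Trbj2-7 was also the leading Trbj of the Xist and Y-linked cells of these gates. The beta constant genes differed, with Trbc1 at 329 CPM (281 to 383) in the 58 cells and 1022 CPM (961 to 1085) in the 101, and Trbc2 at 1872 CPM (1755 to 1996) and 1404 CPM (1332 to 1478). A beta chain uses either Trbc1 or Trbc2, and Trbj2 segments lie beside Trbc2. Of the 17 cells of the pair, 15 had a Trbc1 UMI and 17 a Trbc2 UMI, so which of these their beta chain used is not shown.

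In their other genes, the Trav21-dv12 cells had more Ctla4, Itga1 and Itgae and less granzyme, Lef1 and S1pr1 RNA than cells with other alpha segments. The comparison is with the 101 cells of the same library and gates, so Pdcd1 and the CD8 genes were fixed by the gates. Of 7579 genes whose UMIs summed to 20 or more over these sets, which a gene could reach through 1 set alone, V segments aside, 4.18% were at least 2-fold higher and 5.29% at least 2-fold lower, with a median log2 ratio of -0.0033. Of the 8 inhibitory receptor and chronic activation genes, 1 was at least 2-fold higher and 0 lower (median 0.43). This was Ctla4, an inhibitory receptor, at 1039 CPM (952 to 1132) against 513 (470 to 558). Tox, a transcription factor of chronically stimulated cells, was at 930 and 891 CPM, with intervals that overlap.

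Of 5 tested residency genes, 2 were at least 2-fold higher and 0 lower (median 0.69). Itga1, a collagen-binding integrin, was at 373 CPM (322 to 430) against 170 (146 to 197), and Itgae, the integrin CD103 that binds epithelium, at 65.5 CPM (45.1 to 91.9) against 17.5 (10.4 to 27.7). The chemokine receptor Cxcr6 was at 780 and 484 CPM. Of 6 tested naive and memory genes, 3 were at least 2-fold lower (median -0.99). The 3 were Lef1, Klf2 and S1pr1, the last a receptor needed to leave tissue, at 5.95 CPM (1.23 to 17.4) against 37.9.

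Cytotoxic effector genes were split. Of 10 tested, 5 were at least 2-fold lower and 0 higher (median -1.03). Gzmk was at 29.8 CPM (16.7 to 49.1) against 339, Gzmb at 25.8 against 187, Gzma at 3.97 against 305 and Prf1 at 29.8 against 88.5. Cx3cr1 was the fifth. Ifng, the cytokine interferon-gamma, at 311 CPM (265 to 364) and 316 (283 to 353), did not follow them, nor did its regulator Tbx21, at 286 and 220. All 3 proliferation genes, Mki67, Top2a and Stmn1, were at least 2-fold lower (median -1.76). The receptor complex had 1 of 7 past 2-fold, Trbc1, and the receptor signalling and immediate early lists had 0 of 8 and 0 of 5.

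In the 17 cells of the pair Trav21-dv12 with Trbv12-2, 17 had Tox, 16 Pdcd1, 16 Ctla4, 16 Cxcr6, 15 Itga1 and 13 Ifng, 11 had Lag3 and 9 Tigit. Nkg7 and Ccl5, of cytotoxic granules and chemokines, were in 17 and 16, Tbx21 in 14. Gzma and Klrg1 were in 0 of 17, Gzmb in 2 and Gzmk in 5. Of the proliferation genes, Mki67 was in 6 of 17, Top2a in 3 and Stmn1 in 1. Over all knockout cells of the CD8 and Pdcd1 gates, they were in 15.5%, 21.4% and 13.8%.

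**Figure D5:**
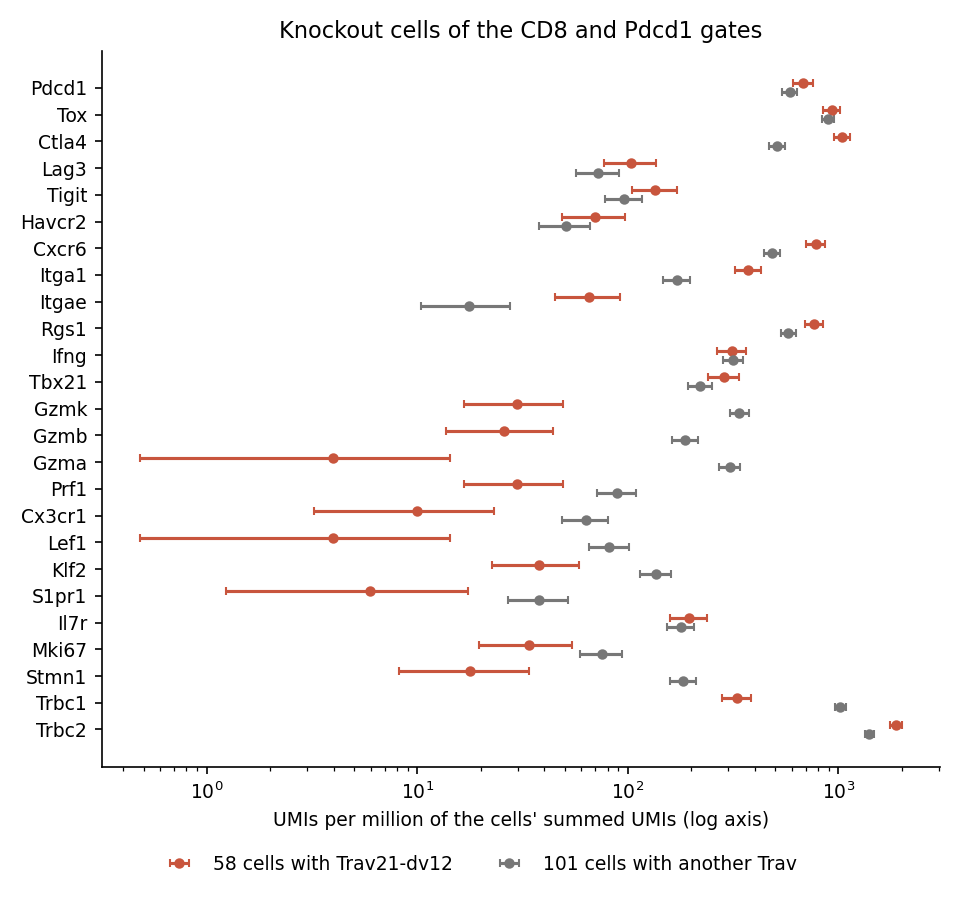
Level of 25 genes in CPM (x axis, log scale) in 58 knockout cells with Trav21-dv12 and 101 with another Trav, all in the CD8 and Pdcd1 gates, with exact Poisson 95% intervals. Granzyme genes, Lef1, S1pr1 and Trbc1 lie lower in the Trav21-dv12 cells, and Ctla4, Itga1, Itgae and Cxcr6 lie higher.

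The Trav7-6 cells differed from this pattern in Gzmk and Gzmb, which were not at least 2-fold lower here, while Gzma was lower in both groups of cells. Against the same 101 cells, where 4.17% of 6840 genes of 20 or more summed UMIs were at least 2-fold higher and 10.8% lower, the 21 Trav7-6 cells had Gzmk at 433 CPM (343 to 539), Gzmb at 362 (280 to 460) and Ccl5 at 18240 (17626 to 18870), the last against 9430. Of 10 tested cytotoxic genes, Gzma and Cx3cr1 were at least 2-fold lower and 0 higher. Itga1 was higher here too, at 356 CPM, as was Entpd1, an ectoenzyme of chronically stimulated cells, at 153 CPM against 59.3. Il7r, the interleukin-7 receptor of memory cells, had a UMI in 0 of 21 cells and in 38 of 101. Trbc1 was at 389 CPM. Of the 3 proliferation genes, Top2a and Stmn1 were at least 2-fold lower and 0 higher. Of 5 tested naive and memory genes, Tcf7, Il7r and Klf2 were lower and 0 higher. Top2a, Stmn1, Klf2 and Trbc1 were thus lower in both groups of cells.

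In the Klrg1 gate Trav21-dv12 was rare. Among its 85 knockout cells with a Trav UMI, Trav14n-3 held 10, 11.8% (5.79 to 20.6), Trav10 and Trav12-2 held 9 each, 10.6% (4.96 to 19.2), and Trav21-dv12 held 1. Trav3-3, Trav16 and Trav16n held 7 each, 8.24% (3.38 to 16.2). Trav10 also held 8 of the 226 knockout cells of the Pdcd1 gate. The neighbours in this order do not differ beyond their intervals. Trav14n-3 was singled out after its values were seen. The 22 knockout Trav14n-3 cells had Gzma at 3461 CPM, from 10 of the cells, and Pdcd1 in 1 cell. The 27 Trav10 cells had Gzma at 1900 CPM, from 15 of the cells, and Pdcd1 in 8. Over all knockout T cells, which include CD4 cells, Gzma was at 631 CPM. Whether the higher level goes with the segments or with their gates was not tested. Among the 27 Trav10 cells, 18 had a Traj UMI, 11 of Traj33 and 9 of Traj27, and 8 had a Trbv UMI, with no Trbv in more than 2. The flox gate, with 22 cells of each chain, had no segment above 4 cells.

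The alpha segment of invariant NKT cells was seen mainly in flox, in fewer cells than the 20 asked of other segments. Trav11 was in 15 of 357 flox cells, 4.20% (2.37 to 6.84), and 3 of 549 knockout cells, 0.546% (0.113 to 1.59). Its copy Trav11d, with no 90-base stretch of its own, was in 0 of both, and Trav11 has such a stretch at 0.394% of positions. Of the 15 flox cells, 7 had Traj18, the joining segment of invariant NKT cells, 11 had Zbtb16, their defining transcription factor, 10 had Klrb1c, and 0 were in the CD8 or Pdcd1 gates. Traj18 alone is no marker here, since it had a UMI in 97 flox and 104 knockout T cells, of which 7 and 1 had Trav11. Zbtb16 over all T cells was in 13.4% of flox and 7.96% of knockout cells. Of the beta segments that go with Trav11, Trbv13-2 and Trbv1 are described above, and Trbv29 was at 6.41% and 3.28%.

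Trav1 and Traj33, of mucosal-associated invariant T cells, were in 1 and 5 cells and in 74 and 99 cells. Trav1 is thus too rare for a comparison. Their usual beta partners Trbv19, given above, and Trbv13-3, at 4.21% and 5.33%, and also Trbv13-1, at 3.61% and 5.12%, had overlapping intervals. The delta constant gene Trdc was in 9.21% (7.75 to 10.9) of flox and 6.21% (5.11 to 7.46) of knockout T cells, and Tcrg-C1 in 11.5% and 9.02%. Segments named for both the alpha and the delta chain were in 60 flox and 146 knockout cells, and a Trdc UMI was in 11 and 9 of these, 18.3% (9.52 to 30.4) and 6.16% (2.86 to 11.4).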

How the data were processed

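The authors deposited UMI counts per gene and barcode, whole numbers, aligned to mm10 with Cell Ranger per the submitters' processing notes. The file headers name Cell Ranger 4 for flox and 7.0.1 for knockout. The flox matrix holds 1002803 barcodes, the knockout matrix 4096 called ones. Per the labels' protocols the kit was of version v2, which is uncertain for flox. Both were filtered alike. Doublets were kept, and Scrublet called 18 flox and 44 knockout T cells. A segment counted in a cell from 1 UMI. Shares have exact Clopper-Pearson and CPM exact Poisson 95% intervals, and differences of shares Newcombe's. Gene ratios used summed UMIs with 0.5 added. Thinning used seed 1. All 163 members matched GENCODE vM21. Named were the 8 Trav and 8 Trbv of highest mean usage, segments that met the size rule, the 10 leading pairs per library and fixed invariant and constant genes. The members and lists were chosen with earlier results of these data known. The ratio calls and pair counts were tested on simulated data. Tools were Python 3.11.15, numpy 2.4.6, scipy 1.17.1 and scanpy 1.11.5 (Scrublet). Values of some list genes are not reported here.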

Additional observations from a re-analysis of the deposited data

Results flagged for a closer look

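A signal of the segments also appeared in barcodes that no comparison uses. The flox matrix holds 778499 barcodes with 1 to 100 UMIs, 3213373 UMIs in all, and these contained 35 Trav and 50 Trbv UMIs. That is 10.9 CPM of Trav and 15.6 CPM of Trbv, above the 0.934 CPM that a count of 0 allows by the limit of 3 counts, and below the 41.8 and 58.3 CPM of the flox T cells. The knockout matrix holds called barcodes only, so the same value is not analysed here for it.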

How the results depend on the processing

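Of 574 recomputed values of 55 results, 509 stayed within the interval (for counts, 1.5-fold) of the reported value, 51 moved and 14 changed sign (both chains together, Trav10, Trav13-1, Trav16, Trav16n and Trbv12-2). Other UMI, mitochondrial and Cd3 minima, doublet removal, stricter or non-exclusive gates, other pair rules and merged subgroups moved none. Leaving out cells with gamma-delta constant UMIs gave 3.0005 points for Trav, -0.39 for both chains, 0 Trav and 0 Trbv segments that differ, 11.6% for Trav21-dv12 in the Pdcd1 gate, 1.961% for its pair, 100% with neither sex transcript and -0.43 (log2) for Trbv12-2. A segment minimum of 2 UMIs gave -3.66 points for Trbv, -0.41 for both chains, 1 and 0 segments, 0% for the pair, and log2 ratios of -0.14 for Trav16 and -0.56 for Trbv12-2. Thinning to 1000 UMIs gave 2.01, -1.40 and -0.38 points, 0 and 0 segments, and log2 ratios of -0.090 for Trav10, -0.83 for Trav13-1 and -0.34 for Trav16. UMI shares gave 8 Trav segments, -0.034 for Trav13-1 and -0.018 for Trbv12-2. Leaving out cells with Trav21-dv12 or Trav3-3, chosen after seeing the data, gave -0.78 points for both chains, 0.0073 for Trav16n and -0.30 for Trbv12-2. A minimum of 50 UMIs gave 114 higher and 178 lower genes for 270 and 373. The low capture limits all of this: at 2 UMIs few cells remain, and the cause of the other shifts was not tested. No paired analysis was possible because each group is 1 library.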
